A study of Mus musculus with 3 samples.

Results

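Gene expression was compared directly between cultured primary mouse hepatic stellate cells labelled TLR4-/- and cells labelled CD44-/-, with 1 RNA sequencing library on each side. These are 2 of the 3 libraries of the series; the wild-type library was not used here. Both came from 24-week-old male C57BL/6 mice, and what the knockout alleles delete is not stated in the labels. The cells were isolated by collagenase and pronase perfusion and a density gradient, liver macrophages were depleted with magnetic beads against CD11b, and the cells were cultured for 3 days in 10% serum and then for 24 h without serum. The labels do not say whether animals or wells were pooled. Of 17200 genes listed in either library, the 12168 with an FPKM (fragments per kilobase of transcript, scaled to library size) of at least 1 in either were compared, and they are called measured below. With 1 library a side there was no replicate and no test was run, so every difference below is one between 2 libraries.

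Hepatic stellate cells are the retinoid-storing pericytes of the liver, and in injury or on plastic they turn into contractile, matrix-producing cells. TLR4 senses bacterial lipopolysaccharide and signals through MyD88 and TRIF adaptors to NF-kB and interferon regulatory factors. CD44 is a surface receptor for hyaluronan. Liver stellate cell preparations can also hold resident macrophages (Kupffer cells), which carry phagocytic receptors, lysozyme and complement C1q.

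Libraries held 23659074 expected counts for the cells labelled TLR4-/- and 21460725 for the CD44-/- cells. Cd44 (chromosome 2, 102811141 to 102901669, GRCm38) had 16.2 FPKM in the library labelled TLR4-/- and 2.57 FPKM in CD44-/-, a ratio of 6.30 (95% interval 5.52 to 7.22). These intervals, from an exact Clopper-Pearson calculation on rounded counts, cover counting error only. Tlr4 (chromosome 4, 66827551 to 66846581) had 10.9 FPKM in the library labelled TLR4-/- and 16.8 FPKM in CD44-/-, a ratio of 0.651 (0.600 to 0.707), with 1000 reads against 1393. Reads may fall in exons that a deletion leaves in place, so the Tlr4 level does not by itself settle the genotype of that library, which is therefore named by its label. The stellate markers were present on both sides. Lrat, which esterifies retinol, had 150 FPKM in the library labelled TLR4-/- and 267 FPKM in CD44-/-, and Pdgfrb had 158 and 173 FPKM in the same order. The Y-linked genes Ddx3y, Eif2s3y, Kdm5d and Uty were measured in both libraries, between 5.22 and 19.6 FPKM in the library labelled TLR4-/- and between 4.93 and 23.2 FPKM in CD44-/-. Xist had 0.02 FPKM in each.

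Fewer genes were higher than lower in the library labelled TLR4-/-. A gene was counted where log2 of the ratio of FPKM + 1 was at least 1 or at most -1, called at least 2-fold here; on this scale low genes differ less than their plain ratio. By this rule 161 of 12168 genes were 2-fold or more higher in the library labelled TLR4-/- (1.32%) and 418 were 2-fold or more lower (3.44%), 4.76% in all. The lower side also held the larger differences. At least 4-fold, 11 genes were higher and 116 lower, and at least 8-fold, 0 were higher and 43 lower. The median log2 ratio over all measured genes was 0.01, and the middle 80% lay between -0.50 and 0.42. Just inside the threshold were Adam19, at 26.3 FPKM in the library labelled TLR4-/- and 12.6 FPKM in CD44-/-, and Rasl11a at 14.1 and 29.2 FPKM. Just outside were Fxyd5, at 161 and 80.1 FPKM in the same order, and Hacd4 at 4.54 and 10.1 FPKM. Of 121 measured genes with a deposited length under 200 bases, 38 were higher and 25 lower. Their FPKM values rest on a length correction, and none is named below.

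**Figure D1:**
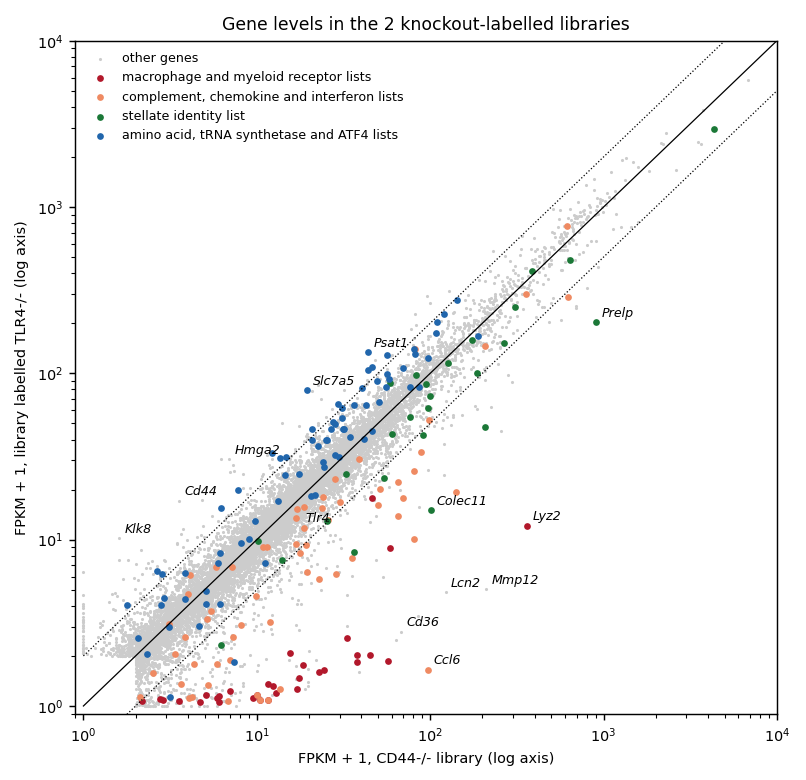
FPKM + 1 of every measured gene in the library labelled TLR4-/- (vertical axis) against the CD44-/- library (horizontal axis), both on log axes, with members of 4 groups of gene lists in colour. The solid line marks equal levels and the dotted lines 2-fold. Macrophage and myeloid receptor genes lie along the bottom at under 12 FPKM in the library labelled TLR4-/-, except Sirpa at 16.8 FPKM, while amino acid genes lie mostly just above the solid line.

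The programme that set the cultures furthest apart was that of macrophages. All 19 measured members of a list of 25 macrophage and Kupffer cell markers were 2-fold or more lower in the library labelled TLR4-/-, beside 3.44% of all genes. Their median log2 ratio was -3.25 against 0.01 over all genes. Only Cd68, Csf1r, Lyz2, Fcer1g and Laptm5 reached 1 FPKM in the library labelled TLR4-/-, so the others passed the filter only through CD44-/-. Cd163 (0.13 FPKM in the library labelled TLR4-/- and 0.17 FPKM in CD44-/-) and Cx3cr1 (0.10 and 0.15 FPKM) were not measured. The count and the median therefore rest in part on the filter. Lyz2, the macrophage lysozyme, had 11.1 FPKM in the library labelled TLR4-/- and 362 FPKM in CD44-/-, 32.6-fold lower (28.9 to 37.0). Its copy Lyz1 had 0.32 and 18.7 FPKM in the same order, and reads can be split between the copies. Tyrobp and Fcer1g, the adaptors that carry the signals of activating myeloid receptors, had 0.83 and 1.03 FPKM in the library labelled TLR4-/- against 36.8 and 36.7 FPKM in CD44-/-. Spi1, which encodes the myeloid transcription factor PU.1, had 0.35 FPKM in the library labelled TLR4-/- and 10.6 FPKM in CD44-/-. Csf1r, the receptor for macrophage colony-stimulating factor, had 1.09 and 14.6 FPKM in that order. Its ligand Csf1 differed little, at 283 FPKM in the library labelled TLR4-/- and 270 FPKM in CD44-/-.

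The 19 markers did not differ by one common factor. The ratio of FPKM ran from 7.26-fold lower for Cd68, a lysosomal glycoprotein, to 132-fold lower (36.2 to 1097) for C1qa, which had 2 reads in the library labelled TLR4-/-. The median was 36.8-fold lower. Cd68 had 7.92 FPKM in the library labelled TLR4-/- and 57.5 FPKM in CD44-/-. Defining Kupffer cell markers were uneven in the CD44-/- library as well. There Cd5l had 21.8 FPKM, Marco 4.87, Vsig4 3.71 and Clec4f 0.68 FPKM, while Timd4 was not listed. In the library labelled TLR4-/- the same genes had 0.60, 0.11 and 0.06 FPKM and 0 for Clec4f. Summed over the list, macrophage markers held 26.8 FPKM in the library labelled TLR4-/- and 675 FPKM in CD44-/-, 0.00613% and 0.155% of all FPKM. In whole cultures, fewer cells of a type and less RNA per cell cannot be told apart.

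Phagocytic and lectin receptors followed the same pattern. Of 22 myeloid lectin and Fc receptor genes, 12 were measured and all 12 were 2-fold or more lower in the library labelled TLR4-/-. Over all genes the share was 3.44%. All but Clec7a and Sirpa were under 1 FPKM in the library labelled TLR4-/-, so they passed the filter only through CD44-/-. Members low in both libraries were not measured, such as Clec4a1, at 0.32 FPKM in the library labelled TLR4-/- and 0.35 FPKM in CD44-/-. The count of 12 therefore rests in part on the filter. Clec4n (Dectin-2), a receptor for fungal mannans, had 0.86 FPKM in the library labelled TLR4-/- and 56.2 FPKM in CD44-/-, 65.4-fold lower (44.1 to 101). Clec7a (Dectin-1), the beta-glucan receptor, had 1.02 and 44.1 FPKM in the same order, 43.2-fold lower (33.1 to 57.5). Trem2, a lipid-sensing receptor, had 0.20 and 11.97 FPKM, and the scavenger receptor Msr1 0.12 and 8.51 FPKM. Sirpa was the member with the most signal in the library labelled TLR4-/-, at 16.8 FPKM against 45.0 FPKM in CD44-/-. The fatty acid scavenger receptor Cd36 had 1.80 FPKM in the library labelled TLR4-/- and 67.3 FPKM in CD44-/-, 37.4-fold lower (31.8 to 44.2).

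Other genes at the lower end belonged to the same surroundings. The furthest of all by the naming rule was Ccl6, a myeloid CC chemokine, with 0.65 FPKM in the library labelled TLR4-/- and 96.6 FPKM in CD44-/-, 149-fold lower (98.0 to 238). Mmp12, the macrophage elastase, had 4.03 and 209 FPKM in the same order, 51.8-fold lower (46.6 to 57.8). Il1rn, the interleukin-1 receptor antagonist, had 0.26 and 17.9 FPKM. Mpeg1, the macrophage perforin, had 0.64 and 23.5 FPKM, and Wfdc17 had 1.48 and 62.4 FPKM. Lilrb4a, at 0.60 and 37.7 FPKM, belongs to a family of similar genes and is uncertain.

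**Figure D2:**
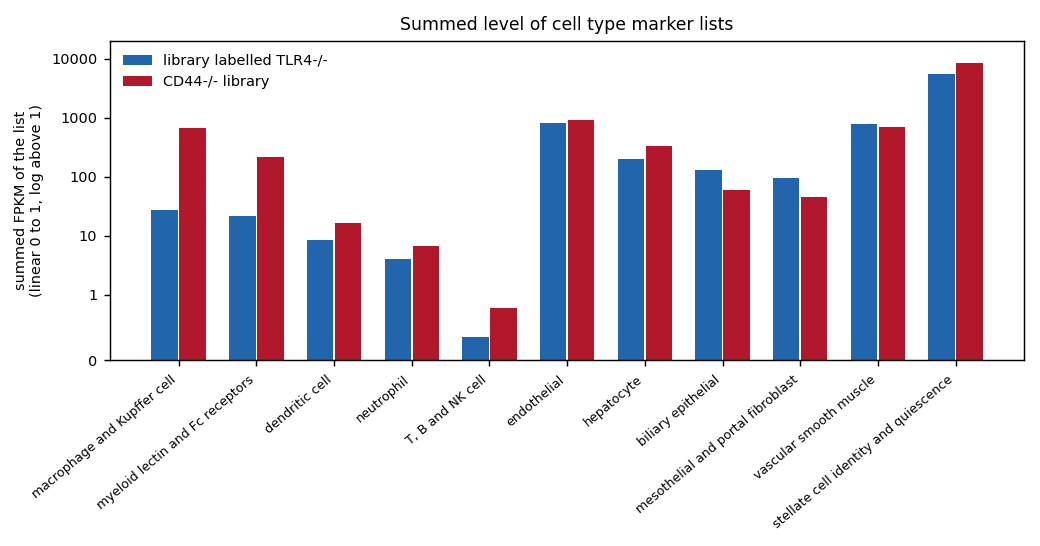
Summed FPKM of 11 marker lists (bars, vertical axis linear from 0 to 1 and logarithmic above) in the library labelled TLR4-/- (blue, left) and the CD44-/- library (red, right). The macrophage bars stand at 26.8 against 675 FPKM, whereas the endothelial bars stand at 824 against 894 FPKM and the stellate bars at 5497 against 8461 FPKM. Plvap and Eng carry the endothelial sum, while the other measured endothelial markers are lower in the library labelled TLR4-/-.

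Lists of markers of other cell types held few measured genes or small differences, with exceptions among endothelial, biliary and mesothelial markers. T, B and NK cell markers summed to 0.35 FPKM in the library labelled TLR4-/- and 0.80 FPKM in CD44-/-, with 0 of 13 measured. Neutrophil markers summed to 4.01 and 6.75 FPKM in the same order. Dendritic cell markers summed to 8.44 and 16.5 FPKM, where Itgax, also a macrophage integrin, had 0.10 FPKM in the library labelled TLR4-/- and 8.87 FPKM in CD44-/-. Of 20 endothelial markers, 12 were measured and 4 were 2-fold or more lower in the library labelled TLR4-/- (median -0.90). These were Fcgr2b (0.51 FPKM against 4.54 FPKM in CD44-/-), Aqp1 (0.98 against 4.60), Cldn5 (0.39 against 2.09) and Pecam1 (0.37 against 1.92). The summed endothelial level was carried by Plvap, at 409 FPKM in the library labelled TLR4-/- and 386 FPKM in CD44-/-, and Eng, at 388 and 457 FPKM, and Plvap is also on the stellate list. Of 18 hepatocyte genes, 3 were measured and 0 passed 2-fold. Ass1, a urea cycle enzyme, made up most of their sum, at 174 FPKM in the library labelled TLR4-/- and 301 FPKM in CD44-/-, and albumin, Alb, was at 1.22 FPKM in the library labelled TLR4-/- and 0.16 FPKM in CD44-/-. Of 10 biliary epithelial markers, 3 were measured, with a median of 0.88. Spp1, also an activation gene, was the 1 past 2-fold, at 126 FPKM in the library labelled TLR4-/- and 57.4 FPKM in CD44-/-, and the keratin Krt19 had 2.03 and 0.65 FPKM, while Epcam was at 0 and 0.02 FPKM. Of 15 mesothelial and portal fibroblast markers, 5 were measured. Fbln2, also an elastic fibre gene, was 2-fold or more higher in the library labelled TLR4-/-, and Entpd2 (2.67 FPKM against 7.09 FPKM in CD44-/-) and Gas6 (4.07 against 12.6) were lower. The mesothelial marker Msln was at 0.02 FPKM in the library labelled TLR4-/- and 0.07 FPKM in CD44-/-. The part of these cell types in the values of Spp1 and Fbln2 was not tested.

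Secreted immune genes were lower in the library labelled TLR4-/- as a broad group. Of 17 CC chemokines, 10 were measured and 8 were 2-fold or more lower (median log2 ratio -2.04). Ccl2, which recruits monocytes, had 18.4 FPKM in the library labelled TLR4-/- and 141 FPKM in CD44-/-, 7.64-fold lower (6.82 to 8.59). Ccl7 had 6.74 and 34.3 FPKM in the same order, and Ccl3 0.27 and 12.6 FPKM. Of 10 measured CXC and CX3C chemokines, 5 were 2-fold or more lower (median -1.26), among them the neutrophil attractants Cxcl1 (4.84 FPKM against 22.0 FPKM in CD44-/-) and Cxcl5 (2.21 against 10.99), the interferon-induced Cxcl10 (5.41 against 18.5) and the scavenger-type chemokine Cxcl16 (21.2 against 64.1). The stromal chemokines went the other way without reaching 2-fold. Cxcl12, the abundant stromal ligand of CXCR4, had 768 FPKM in the library labelled TLR4-/- and 616 FPKM in CD44-/-, and Cxcl14 had 140 and 81.0 FPKM. The summed CXC and CX3C level was therefore 961 FPKM in the library labelled TLR4-/- and 847 FPKM in CD44-/-, although the list median was negative.

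Among inflammatory cytokines and acute-phase genes, 5 of 13 measured were 2-fold or more lower in the library labelled TLR4-/-, against 0 that were higher (median -0.75). Lcn2, a lipocalin that binds bacterial siderophores, had 3.82 FPKM in the library labelled TLR4-/- and 122 FPKM in CD44-/-, 31.8-fold lower (25.3 to 40.6). Saa3, an acute-phase apolipoprotein, had 2.02 and 32.3 FPKM. Il1a had 0.15 and 3.01 FPKM, and Tnf 0.05 and 1.39 FPKM. The adhesion molecules Vcam1 and Icam1 stayed within 2-fold, at 60.8 and 40.1 FPKM in the library labelled TLR4-/- against 100.1 and 61.8 FPKM in CD44-/-. NF-kB feedback genes had a median of -0.60 over 12 measured, with 2 2-fold or more lower. Nfkbia, the inhibitor that NF-kB induces, had 24.0 FPKM in the library labelled TLR4-/- and 52.1 FPKM in CD44-/-, and the deubiquitinase Tnfaip3 had 1.77 and 5.36 FPKM. Tnfaip2 alone of these genes lay above 0, at 57.0 and 28.5 FPKM in the same order, without passing the 2-fold rule.

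The receptor pathway itself separated the cultures little. Of 21 measured TLR4 signalling genes, 1 was 2-fold or more lower in the library labelled TLR4-/- and 20 lay between, with a median of -0.01. The one was Cd14, the lipopolysaccharide co-receptor, also a myeloid marker, at 3.13 FPKM against 17.0 FPKM in CD44-/-. The 3 members of highest level, the kinase Irak1 and the NF-kB subunits Rela and Nfkb1, had 45.2, 42.5 and 23.5 FPKM in the library labelled TLR4-/- and 42.1, 49.6 and 30.8 FPKM in CD44-/-.

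Complement was the list with the largest share of lower members outside the myeloid lists and it reached beyond macrophage genes. Of 15 measured, 13 were 2-fold or more lower in the library labelled TLR4-/-, against 0 that were higher (median -1.88). The C1q chains, made by macrophages and also on the macrophage list, had at most 0.16 FPKM in the library labelled TLR4-/- and 8.99 to 10.6 FPKM in CD44-/-. C3 had 0.33 and 4.21 FPKM in the same order, and the receptor genes C5ar1 and C3ar1 had 0.14 and 0.11 FPKM against 3.21 and 3.07 FPKM. These and the C1q chains passed the filter only through CD44-/-, so the count and the median rest in part on the filter. Cfp had 2.07 and 7.06 FPKM. Other proteases and proteins of the classical and alternative pathways were also present in the library labelled TLR4-/-, at lower levels. Cfb, the factor B protease, had 9.05 FPKM in the library labelled TLR4-/- and 80.1 FPKM in CD44-/-, 8.85-fold lower (8.13 to 9.65). C4b had 12.95 and 64.0 FPKM, 4.94-fold lower (4.68 to 5.21), though reads can be shared with its near copy C4a. C1s1, C1ra and C2 had 16.9, 32.7 and 24.95 FPKM in the library labelled TLR4-/- and 68.4, 87.2 and 79.2 FPKM in CD44-/-. Serping1, the C1 inhibitor, had 288 and 624 FPKM. The lectin pathway protease Masp1 lay within 2-fold, at 298 FPKM in the library labelled TLR4-/- against 355 FPKM in CD44-/-. Macrophage markers were 25.2-fold higher in sum in CD44-/-, and their part in these differences was not tested.

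Interferon-stimulated genes were lower as a group by a smaller amount. Of 27 measured, 26 lay below 0, 7 were 2-fold or more lower and 0 higher, with a median of -0.56 and a range of -2.18 to 0.23. Xaf1, a pro-apoptotic interferon target, had 5.26 FPKM in the library labelled TLR4-/- and 27.5 FPKM in CD44-/-, 5.22-fold lower (4.63 to 5.90). The guanylate-binding protein Gbp2 had 15.1 and 48.9 FPKM, and Zbp1, a sensor of Z-form nucleic acid, 1.61 and 6.33 FPKM. Ifit3, an antiviral RNA-binding protein, had 19.2 and 50.1 FPKM, and Ifit1 3.61 and 8.91 FPKM. Ifit3 has a similar copy, Ifit3b, with 5.02 and 11.4 FPKM, so its value is uncertain. Irf7 and Usp18 were the other 2 2-fold or more lower, at 8.25 and 7.36 FPKM against 18.3 and 16.7 FPKM in CD44-/-. The list's most abundant member, Bst2 (tetherin), had 146 FPKM in the library labelled TLR4-/- and 206 FPKM in CD44-/-.

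The interferon-stimulated response element was searched as the core GAAA, any 2 bases, GAAA on both strands. It was found in 42.3% of 26 promoters of this list, against 3.06% of 12225 promoters of measured genes. The list was made of genes known to respond to interferon, so the share describes the list and no difference between the libraries. A promoter here is the stretch from 250 bases before to 50 after a gene's start in RefSeq, GRCm38.p6. The 12225 promoters belong to 9618 genes, so a gene with several starts counts more than once and some measured genes have none. The stretches around the matches in 3 members past 2-fold are shown because they carry that element. Each runs 5′ to 3′ on the gene's strand, with the matched bases in capitals.
Gbp2, chr3:142620584-142620633, plus strand: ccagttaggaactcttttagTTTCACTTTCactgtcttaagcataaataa
Ifit3, chr19:34583353-34583436, plus strand: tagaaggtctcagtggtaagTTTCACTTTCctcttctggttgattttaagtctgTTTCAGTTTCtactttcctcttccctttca
Ifit1, chr19:34640765-34640833, plus strand: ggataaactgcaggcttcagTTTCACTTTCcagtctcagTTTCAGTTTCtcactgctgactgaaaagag
Ifit3 and Ifit1 each held 2 matches in tandem and Gbp2 held 1. A match is a description of the letters and no measure of binding.

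Antigen presentation genes were mostly lower in the library labelled TLR4-/- too. For class I, 3 of 17 measured genes were 2-fold or more lower and 0 higher, with a median of -0.59. Tapbp (tapasin), which loads peptides, had 55.2 FPKM in the library labelled TLR4-/- and 151 FPKM in CD44-/-, and the immunoproteasome subunit Psmb9 had 5.29 and 14.6 FPKM. H2-K1, a heavy chain with similar relatives, had 435 and 931 FPKM, and B2m, the shared light chain, 1675 and 2619 FPKM. The class II chains were scarce. Cd74, the invariant chain, had no read in the library labelled TLR4-/- and 3.95 FPKM in CD44-/-, while H2-Aa and H2-Ab1 were under 1 FPKM in both. Other members of the class II list were abundant, with Lgmn at 154 FPKM in the library labelled TLR4-/- and 225 FPKM in CD44-/-. Ifi30 (145 and 110 FPKM) and H2-DMa (2.44 and 2.12 FPKM) lay the other way within 2-fold.

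Lysosomal genes shared a direction while differing widely in size. All 28 measured lay below 0 (median -0.50), and 6 were 2-fold or more lower in the library labelled TLR4-/-. Those 6 were led by genes of macrophages and osteoclasts. Ctss, a myeloid cysteine protease, had 2.46 FPKM in the library labelled TLR4-/- and 83.9 FPKM in CD44-/-. Atp6v0d2, a proton pump subunit of such cells, had 0.34 and 10.7 FPKM, Acp5 1.86 and 16.6 FPKM, and Gpnmb 88.2 and 296 FPKM. The widely expressed members differed less. Ctsd, the main aspartic protease, had 816 FPKM in the library labelled TLR4-/- and 1587 FPKM in CD44-/-, Lamp1 902 and 1176 FPKM, and Cd63 933 and 994 FPKM.

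**Figure D3:**
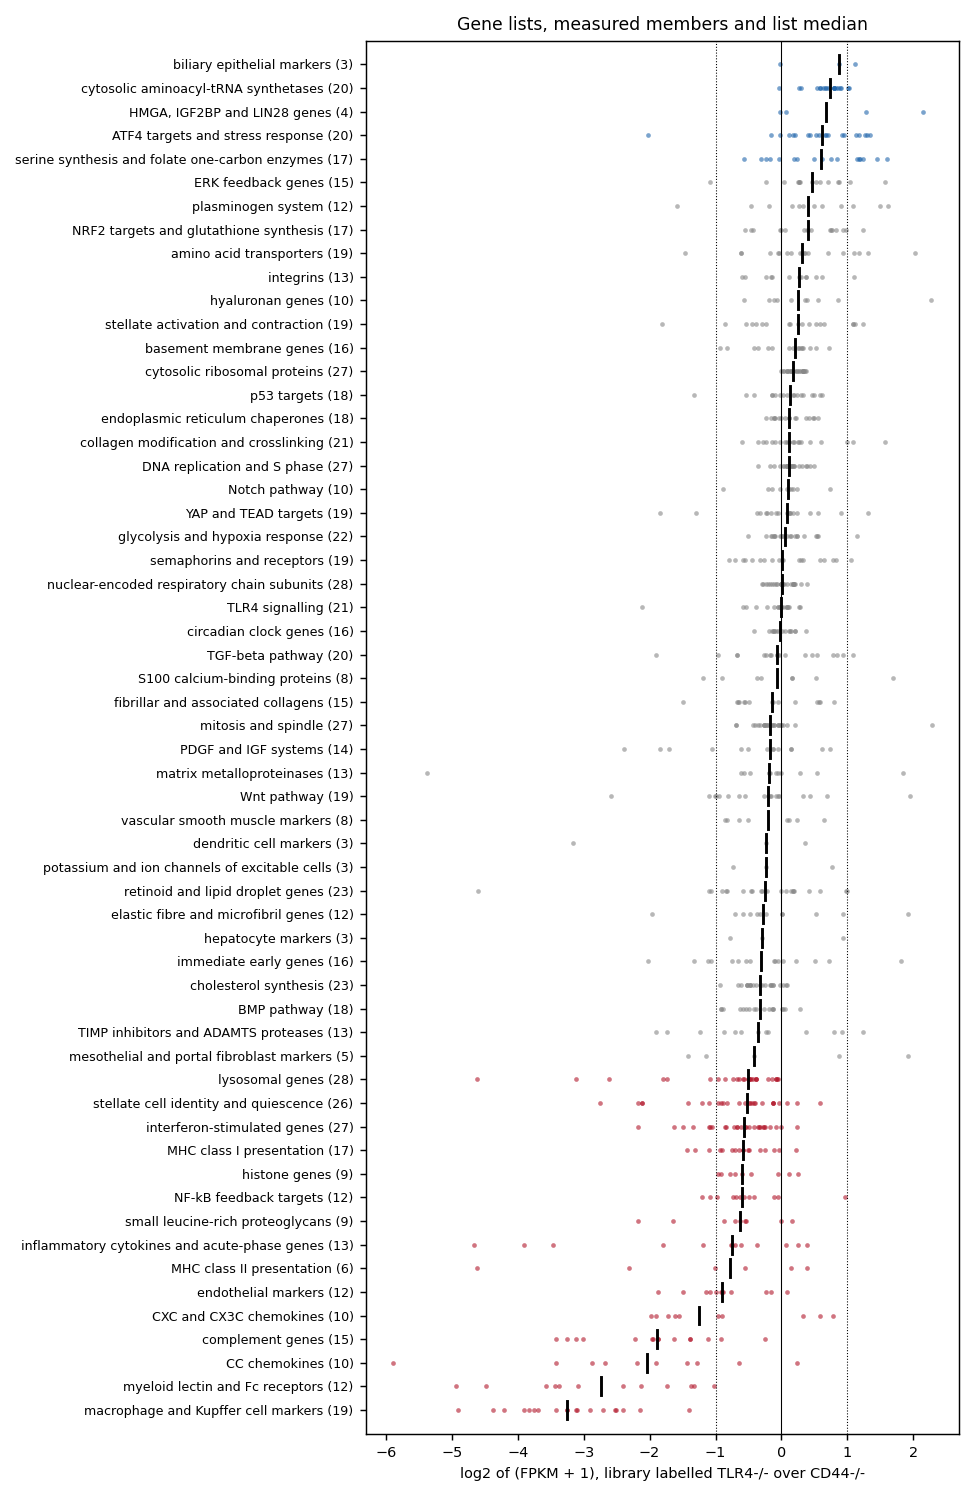
The log2 ratio of FPKM + 1, library labelled TLR4-/- over CD44-/- (horizontal axis), for the measured members of each gene list with at least 3 (points, number measured in brackets) with each list's median (black bar). Lists coloured blue have a median above 0.5 and lists coloured red one below -0.5. The macrophage list (median -3.25) sits furthest to the left, and the tRNA synthetase list keeps 19 of 20 members to the right of 0.

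Of 62 lists, 59 had at least 3 measured members. A median of at least 0.5 was found in 5 of these and a median of at most -0.5 in 15.

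Genes of the quiescent, retinoid-storing state were lower in the library labelled TLR4-/-. Of 26 measured stellate identity and quiescence genes, 7 were 2-fold or more lower, 0 higher and 3 above 0, with a median of -0.52. The 2 collectins of the list, soluble lectins that quiescent stellate cells secrete, stood out. Colec11 had 14.1 FPKM in the library labelled TLR4-/- and 100.01 FPKM in CD44-/-, 7.12-fold lower (6.45 to 7.87), and Colec10 had 7.40 and 35.4 FPKM, 4.78-fold lower (4.43 to 5.17). Prelp, a leucine-rich matrix proteoglycan, had 202 and 909 FPKM in the same order, 4.50-fold lower (4.43 to 4.58). The metalloreductase Steap4 had 46.3 and 205 FPKM. Ngfr, the p75 neurotrophin receptor, had 1.32 and 5.19 FPKM, and the bile acid receptor gene Nr1h4 22.6 and 53.2 FPKM. Members that differed little were Bmp10, with 85.7 FPKM in the library labelled TLR4-/- and 94.1 FPKM in CD44-/-, Plvap, and the intermediate filament gene Des (97.1 and 82.3 FPKM). Nes, another intermediate filament gene, went the other way within 2-fold, at 87.0 and 58.0 FPKM in the same order.

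Retinoid and lipid genes differed mostly by less than 2-fold. Lrat and Aldh1a1 were lower in the library labelled TLR4-/-, with Lrat at 150 FPKM against 267 FPKM in CD44-/- and Aldh1a1, which makes retinoic acid, at 218 against 409 FPKM. Over the list, 3 of 23 measured were 2-fold or more lower and 0 higher (median -0.25). Beside Cd36 these included Pnpla3, a lipase of lipid droplets, at 0.28 FPKM in the library labelled TLR4-/- and 1.68 FPKM in CD44-/-. The lipid droplet coat Plin2 had 172 FPKM in the library labelled TLR4-/- and 237 FPKM in CD44-/-. Some retinoid genes lay on the other side of 0 without passing the 2-fold rule. Among them were Aldh1a2, with 4.28 FPKM in the library labelled TLR4-/- and 1.67 FPKM in CD44-/-, Crabp1 (1.89 and 0.46 FPKM) and Cyp26b1 (19.4 and 12.5 FPKM).

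Activation and contraction genes did not move as one. Of 19 measured, 4 were 2-fold or more higher in the library labelled TLR4-/-, 1 was lower and 12 lay above 0 (median 0.25). Among the 4 were the metalloproteinase inhibitor Timp1 (194 FPKM against 81.5 FPKM in CD44-/-), osteopontin Spp1 (126 against 57.4) and the collagen crosslinker Lox (40.5 against 18.6). Thbs2, a matricellular thrombospondin, was the lower one, at 12.8 against 47.5 FPKM. Most contractile genes lay below 0 within 2-fold. Acta2, the smooth muscle actin, had 81.5 FPKM in the library labelled TLR4-/- and 148 FPKM in CD44-/-. Tpm1 had 625 and 847 FPKM and Myl9 80.0 and 105 FPKM, and Tpm2 and Cnn2 were also lower. Tagln, which binds actin, went the other way with 515 and 330 FPKM, as did Actg2 (2.04 and 1.79 FPKM). The vascular smooth muscle list, which shares Acta2, Tagln, Actg2 and Cnn1, had 0 of 8 measured past 2-fold either way and a median of -0.21. In it Mylk, Myh11 and Lmod1 also lay below 0, and Smtn and Des above.

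**Figure D4:**
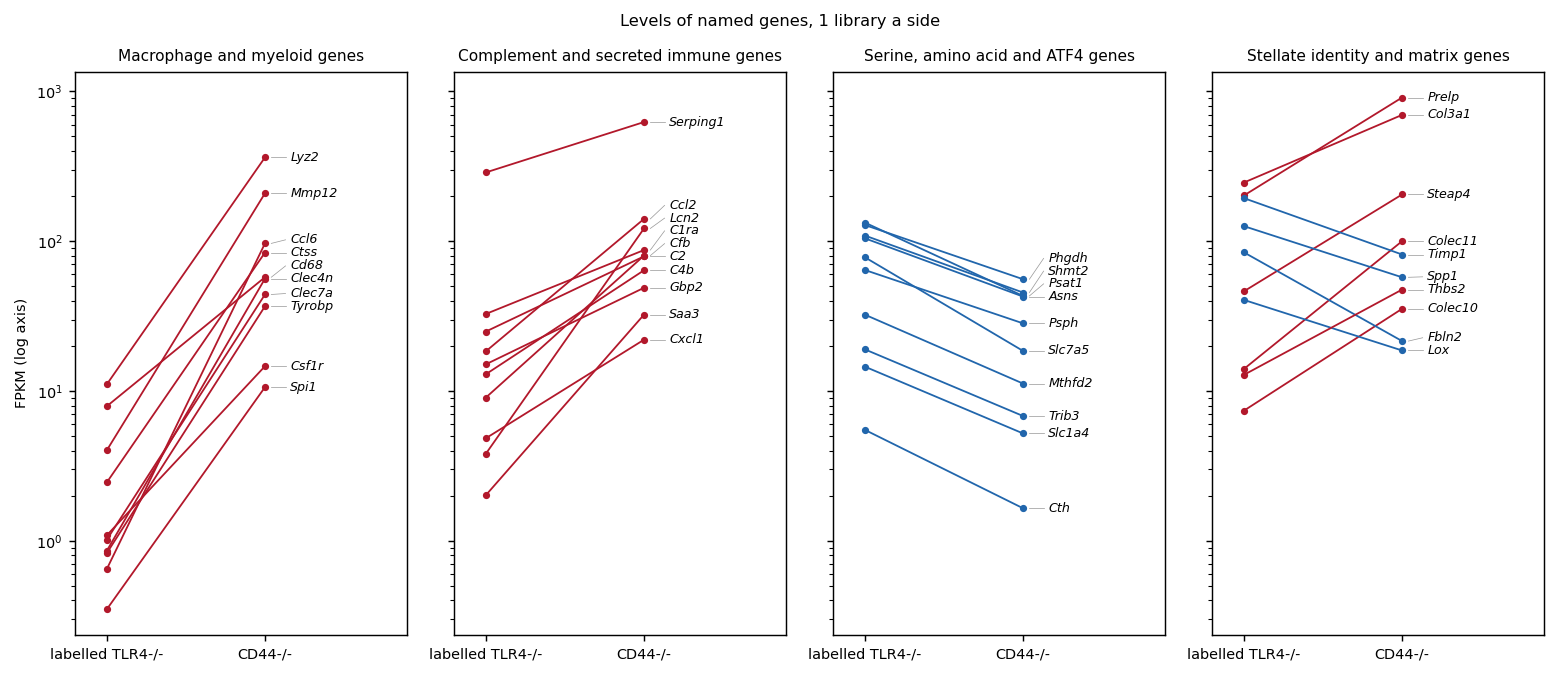
FPKM (log axis) of 40 named genes in 4 panels, each gene a line from the library labelled TLR4-/- (left) to the CD44-/- library (right). Blue lines mark genes higher in the library labelled TLR4-/- and red lines genes lower there; the fourth panel holds both, with Timp1, Spp1, Fbln2 and Lox the 4 of its 10 genes higher in the library labelled TLR4-/-.

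Collagens differed gene by gene. Of 15 measured fibrillar and associated collagens, 1 was 2-fold or more lower in the library labelled TLR4-/-, against 0 that were higher (median -0.15). The shares over all genes were 3.44% lower and 1.32% higher. Col3a1 had 246 FPKM in the library labelled TLR4-/- and 696 FPKM in CD44-/-, 2.83-fold lower (2.79 to 2.86), while Col1a1 had 358 and 205 FPKM, a ratio of 1.75 (1.72 to 1.78). The level of Col1a1 in FPKM was thus above that of Col3a1 in the library labelled TLR4-/- and below it in CD44-/-. Col5a2 had 347 and 234 FPKM, and Col14a1 167 and 247 FPKM. Basement membrane genes stayed within 2-fold in all 16 measured (median 0.21), with Col4a1 at 1264 and 879 FPKM, Nid1 at 474 and 287 FPKM, and Sparc, a collagen-binding glycoprotein, at 2801 and 2287 FPKM. Collagen modification and crosslinking genes had 2 of 21 measured 2-fold or more higher, Lox and the procollagen C-proteinase enhancer Pcolce2 (23.8 FPKM against 7.34 FPKM in CD44-/-).

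Proteoglycans and elastic fibre genes held larger single differences. Small leucine-rich proteoglycans had a median of -0.63 over 9 measured, with 2 2-fold or more lower in the library labelled TLR4-/-, Prelp and Podn (1.35 against 6.37 FPKM). Decorin, Dcn, had 2951 FPKM in the library labelled TLR4-/- and 4337 FPKM in CD44-/-, and biglycan, Bgn, had 2412 and 2154 FPKM. Of 12 measured elastic fibre genes, 1 was higher and 1 lower, beside 1.32% and 3.44% over all genes. Elastin, Eln, had 1.81 FPKM in the library labelled TLR4-/- and 9.91 FPKM in CD44-/-, 5.48-fold lower (4.62 to 6.52), and fibulin 2, Fbln2, which links microfibrils and basement membranes, had 84.1 and 21.5 FPKM, 3.91-fold higher (3.72 to 4.10).

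Proteases divided in the same gene-by-gene way. Of 13 measured matrix metalloproteinases, 1 was 2-fold or more higher and 1 lower, beside 1.32% and 3.44% over all genes. The higher one was Mmp10 (stromelysin 2), with 49.2 FPKM in the library labelled TLR4-/- and 13.1 FPKM in CD44-/-, and the lower one was Mmp12. The other abundant members lay within 2-fold, with Mmp3 at 387 and 319 FPKM, Mmp14 at 120 and 127 FPKM and Mmp2 at 102 and 117 FPKM in the same order. The aggrecan-degrading protease Adamts5 had 4.52 FPKM in the library labelled TLR4-/- and 19.6 FPKM in CD44-/-, and Adamts7 and Adamtsl4 had 4.42 and 4.68 against 17.0 and 12.4 FPKM. Plasminogen system genes had 3 of 12 measured 2-fold or more higher in the library labelled TLR4-/-. Thbd, the endothelial-type thrombin receptor thrombomodulin, had 228 FPKM in the library labelled TLR4-/- and 80.4 FPKM in CD44-/-, and the protease inhibitor Tfpi2 had 10.6 and 2.75 FPKM. The activator itself, Plau (urokinase), was lower, at 5.32 against 17.97 FPKM.

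Growth factor pathways differed in how many genes passed 2-fold, and some shared a direction below that. Over all genes, 4.76% passed 2-fold either way. TGF-beta pathway genes had 1 of 20 2-fold or more higher and 1 lower, Tgfbi, a secreted target with 25.1 FPKM in the library labelled TLR4-/- and 96.6 FPKM in CD44-/-, with a median of -0.06. BMP pathway genes had 0 of 18 past 2-fold, but 14 of the 18 lay below 0, with a median of -0.33. Its target Id3 had 265 FPKM in the library labelled TLR4-/- and 497 FPKM in CD44-/-, and the inhibitory Smad6 had 39.0 and 74.7 FPKM. Wnt5a, a non-canonical ligand, had 27.1 FPKM in the library labelled TLR4-/- and 6.27 FPKM in CD44-/-, 4.31-fold higher (3.95 to 4.72). Wnt4 (26.6 and 54.5 FPKM), the antagonist Sfrp2 (0.38 and 7.31 FPKM) and Nkd1 (10.5 and 23.6 FPKM) were 2-fold or more lower. The Wnt list had a median of -0.21 over 19 measured. Outside the BMP list, the secreted BMP regulator Bmper had 77.7 FPKM in the library labelled TLR4-/- and 19.7 FPKM in CD44-/-. Gdf2 (BMP9), also not on that list, was 2-fold or more lower, at 103 and 207 FPKM. In the PDGF and IGF list, 4 of 14 were 2-fold or more lower and 0 higher. These were Igf1 (0.36 FPKM in the library labelled TLR4-/- and 6.13 FPKM in CD44-/-) and its binding proteins Igfbp3 (61.4 and 224 FPKM) and Igfbp5 (0.48 and 3.82 FPKM), with the ligand Pdgfd at 3.88 and 9.10 FPKM. Of 19 measured YAP and TEAD target genes, 1 was higher, Fjx1 (8.89 and 2.95 FPKM), and 2 were lower, Igfbp3 and Ccn1 (53.9 and 134 FPKM), while Ccn2 had 142 and 159 FPKM. Notch, integrin, semaphorin and hyaluronan lists had medians of 0.09, 0.26, 0.01 and 0.25; among their members, Itga6, Sema5a and Cd44 were past 2-fold, all higher in the library labelled TLR4-/-.

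Genes of amino acid supply were among the lists higher in the library labelled TLR4-/-. Of 17 measured serine synthesis and folate one-carbon enzymes, 6 were 2-fold or more higher in the library labelled TLR4-/- and 0 lower, with a median of 0.61. The whole serine branch was among them. Phgdh, which starts the pathway from a glycolytic intermediate, had 128 FPKM in the library labelled TLR4-/- and 55.7 FPKM in CD44-/-, 2.30-fold higher (2.19 to 2.42). Psat1, the transaminase that follows, had 133 and 43.1 FPKM in the same order, 3.09-fold higher (2.94 to 3.24), and Psph, the final phosphatase, 64.2 and 28.3 FPKM. The mitochondrial one-carbon enzymes continued the pattern, with Shmt2 at 109 and 45.4 FPKM, Mthfd2 at 32.3 and 11.2 FPKM and Mthfd1l at 29.8 and 12.6 FPKM. The other 11 lay within 2-fold, among them Tyms, the thymidylate synthase, with 17.4 FPKM in the library labelled TLR4-/- and 19.7 FPKM in CD44-/-.

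Amino acid transporters had 4 of 19 measured 2-fold or more higher in the library labelled TLR4-/- and 1 lower (median 0.31). Slc7a5, the exchanger that imports large neutral amino acids, had 78.0 FPKM in the library labelled TLR4-/- and 18.5 FPKM in CD44-/-, 4.21-fold higher (3.98 to 4.47). Its partner chain Slc3a2 had 175 and 106 FPKM. The neutral transporter Slc1a4 had 14.5 and 5.21 FPKM, and the cationic transporters Slc7a1 and Slc7a3 had 30.6 and 3.05 FPKM in the library labelled TLR4-/- against 13.7 and 0.79 FPKM in CD44-/-. The cystine exchanger Slc7a11 had 122 and 96.1 FPKM. Slc7a8 was the lower one, at 0.14 against 2.14 FPKM.

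The aminoacyl-tRNA synthetases, which charge tRNAs with amino acids, had the narrowest shift of the higher lists. Of 20 measured, 19 lay above 0, with a median of 0.74 and a range of -0.04 to 1.02, and 2 reached 2-fold. These were Iars, with 61.2 FPKM in the library labelled TLR4-/- and 29.8 FPKM in CD44-/-, and Tars, with 81.0 and 39.5 FPKM. Nars was the most abundant, at 203 and 109 FPKM, and Qars, at 43.9 and 45.3 FPKM, was the one below 0.

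ATF4 is a transcription factor that is translated when amino acids run short or unfolded proteins accumulate, and it drives synthesis and import of amino acids. Of 20 measured genes on the list of ATF4 targets and stress response, 5 were 2-fold or more higher in the library labelled TLR4-/- and 1 lower (median 0.62, with 17 above 0). Asns, the asparagine synthetase, had 104 FPKM in the library labelled TLR4-/- and 42.7 FPKM in CD44-/-, 2.45-fold higher (2.32 to 2.59). The pseudokinase Trib3 had 19.0 and 6.81 FPKM, the cysteine-producing lyase Cth 5.50 and 1.65 FPKM, the proline synthesis enzyme Aldh18a1 45.6 and 19.7 FPKM, and the glutathione-degrading Chac1 5.22 and 1.84 FPKM. Atf4 itself had 129 and 80.8 FPKM and Atf5 274 and 141 FPKM. Atf3, also an immediate early gene, was the lower one, at 0.83 against 6.41 FPKM. Endoplasmic reticulum chaperones, the other arm of the unfolded protein response, had 0 of 18 past 2-fold and a median of 0.12. Hspa5 (BiP) had 559 FPKM in the library labelled TLR4-/- and 380 FPKM in CD44-/-, and Calr 584 and 598 FPKM.

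One element was searched for in the promoters of the amino acid lists. The CARE, the composite site of C/EBP and ATF family factors, was searched as TGATGNAAN on both strands. It was found in 22.5% of the 71 promoters of the 4 amino acid lists, against 2.22% of 12225 promoters of measured genes. These lists include genes chosen as ATF4 targets, so the share describes the lists and no difference between the libraries. By list the shares were 38.5% for tRNA synthetases, 33.3% for ATF4 targets, 18.2% for transporters and 0% for the 15 promoters of serine and one-carbon enzymes. The 7 members past 2-fold with a match are shown as stretches of 49 bases, 5′ to 3′ on the gene's strand, with the matched bases in capitals; 6 were higher in the library labelled TLR4-/- and Atf3 was lower.
Asns, chr6:7693204-7693252, minus strand: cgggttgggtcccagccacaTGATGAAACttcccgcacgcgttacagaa
Trib3, chr2:152344019-152344067, minus strand: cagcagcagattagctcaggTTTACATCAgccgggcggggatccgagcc
Slc1a4, chr11:20332690-20332738, minus strand: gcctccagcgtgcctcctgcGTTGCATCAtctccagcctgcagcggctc
Chac1, chr2:119351028-119351076, plus strand: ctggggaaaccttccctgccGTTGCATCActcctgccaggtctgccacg
Tars, chr15:11399646-11399694, minus strand: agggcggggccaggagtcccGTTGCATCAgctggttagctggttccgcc
Iars, chr13:49682116-49682164, plus strand: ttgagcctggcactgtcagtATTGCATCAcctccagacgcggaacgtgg
Atf3, chr1:191183416-191183464, minus strand: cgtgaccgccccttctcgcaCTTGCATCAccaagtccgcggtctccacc
Asns alone carried the element in the forward sense, and the other 6 carried it as its reverse complement. Where no match was found, as for Phgdh, Psat1 and Psph, this says only that these letters are not in the window searched.

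Redox genes had a positive median with members on both sides. Of 17 measured NRF2 targets and glutathione genes, 1 was 2-fold or more higher in the library labelled TLR4-/- and 0 lower (median 0.40). The shares over all genes were 1.32% higher and 3.44% lower. Txnrd1, the thioredoxin reductase, had 543 FPKM in the library labelled TLR4-/- and 231 FPKM in CD44-/-, 2.35-fold higher (2.31 to 2.40). Hmox1, the heme oxygenase, had 973 and 511 FPKM, and the autophagy adaptor Sqstm1 1472 and 877 FPKM. Of the 17, 5 lay below 0. The most abundant of these were the glutathione transferases Gstm1, at 593 and 800 FPKM, and Gstm2, at 156 and 231 FPKM, which can share reads, and the peroxiredoxin Prdx1, at 520 and 716 FPKM.

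ERK feedback genes, induced and used as brakes by growth factor signalling, had 2 of 15 measured 2-fold or more higher in the library labelled TLR4-/- and 1 lower, with 13 above 0 and a median of 0.46. The phosphatase Dusp5 had 9.89 FPKM in the library labelled TLR4-/- and 2.66 FPKM in CD44-/-, and the transcription factor Etv4 2.12 and 0.52 FPKM. Dusp1, a stress-inducible phosphatase, had 21.8 and 47.3 FPKM. Immediate early genes also parted. Fosl1, an AP-1 subunit, had 25 FPKM in the library labelled TLR4-/- and 6.38 FPKM in CD44-/-, 3.92-fold higher (3.39 to 4.54). Fos, Egr1, Egr2 and Atf3 were 2-fold or more lower, at 0.76, 2.41, 0.37 and 0.83 FPKM in the library labelled TLR4-/- against 2.70, 6.39, 2.45 and 6.41 FPKM in CD44-/-.

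HMGA proteins, which bend DNA in chromatin of growing cells, were higher in the library labelled TLR4-/-. Hmga2 had 29.6 FPKM in the library labelled TLR4-/- and 5.89 FPKM in CD44-/-, 5.02-fold higher (4.58 to 5.52), and its pseudogene Hmga2-ps1, a near copy that can share its reads, had 16.4 and 3.83 FPKM. Hmga1 had 312 and 128 FPKM, 2.45-fold higher (2.37 to 2.53). Summed with its copy Hmga1b, it had 539 CPM (counts scaled to library total) in the library labelled TLR4-/- and 219 CPM in CD44-/-, a ratio of 2.46.

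Proliferation lists held 1 gene past 2-fold. Of 27 measured replication genes, 0 passed 2-fold, and the median was 0.11; Pcna, the DNA polymerase clamp, had 120 FPKM in the library labelled TLR4-/- and 116 FPKM in CD44-/-. Of 27 measured mitotic genes, 22 lay at or below 0 with a median of -0.17, and 1 passed 2-fold. That gene was Pttg1 (securin), which holds sister chromatids together until anaphase, at 29.5 FPKM in the library labelled TLR4-/- and 5.24 FPKM in CD44-/-, 5.64-fold higher (4.50 to 7.12). The highest of the other mitotic genes were Ccna2, with 8.03 and 9.35 FPKM, and Top2a, with 7.43 and 9.07 FPKM.

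Lists of housekeeping functions held few genes past 2-fold, though some had a shared direction. All 27 cytosolic ribosomal protein genes lay above 0, with a highest value of 0.37 and a median of 0.18. Respiratory chain subunits had a median of 0.01 over 28 measured with 0 past 2-fold, and circadian clock genes -0.02 over 16 with 0 past 2-fold. Histone genes had a median of -0.60 over 9 measured with 0 past 2-fold. Cholesterol synthesis genes had 0 of 23 past 2-fold, with 3 above 0 and a median of -0.33. Glycolysis and hypoxia genes had a median of 0.05 over 22, and Vegfa, the angiogenic factor, was the 1 past 2-fold, at 26.3 FPKM in the library labelled TLR4-/- and 11.3 FPKM in CD44-/-. Of the 10 genes of highest FPKM in each library, 8 were shared, led by ferritin light chain Ftl1 at 5827 FPKM in the library labelled TLR4-/- and 6818 FPKM in CD44-/-. Gapdh and Vim were in the top 10 of the library labelled TLR4-/- only, and B2m and Tpt1 in that of CD44-/- only.

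Further genes at the higher end belonged to no shared list. Klk8, a secreted serine protease, was furthest of all, with 9.19 FPKM in the library labelled TLR4-/- and 0.61 FPKM in CD44-/-, 15.1-fold higher (9.24 to 26.2), resting on 284 reads against 17. Acsbg1, which activates long-chain fatty acids, had 7.61 and 1.14 FPKM. Crct1 had 6.11 and 1.01 FPKM, with 100 reads against 15.

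Over all genes called, motif shares on the higher and the lower side were set beside those of all measured genes. The PU.1-type ETS element (GAGGAAGT) was found in 3.39% of 118 promoters of genes 2-fold or more higher in the library labelled TLR4-/-, in 9.91% of 333 promoters of genes 2-fold or more lower, and in 3.07% of all 12225. The interferon element was in 5.08%, 8.41% and 3.06% in the same order, the CARE in 5.93%, 3.90% and 2.22%, and the AP-1 element (TGANTCA) in 9.32%, 12.3% and 5.10%. Each of these elements was above the all-promoter share on both sides, for the PU.1-type element only slightly on the higher side. With 118 promoters, the shares of the higher side rest on few matches. GGAATG (TEAD), TTTGAA (CHR), CCAAT (NF-Y), GTCACGTG (MITF/TFE E-box) and the CArG box were searched in the same way. Within the macrophage list, 1 of 15 promoters held the PU.1-type element, that of C1qc; in the myeloid receptor list the promoter of Fcgr4 held it, and both are shown with the match in capitals.
C1qc, chr4:136893082-136893129, minus strand: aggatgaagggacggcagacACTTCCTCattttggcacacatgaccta
Fcgr4, chr1:171018882-171018929, plus strand: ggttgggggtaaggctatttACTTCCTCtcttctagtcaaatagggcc
C1qc had 0.08 FPKM in the library labelled TLR4-/- and 9.38 FPKM in CD44-/-, and Fcgr4 had 0.17 and 4.12 FPKM. Promoters of different genes vary in base composition, which these shares do not correct for.

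**Figure D5:**
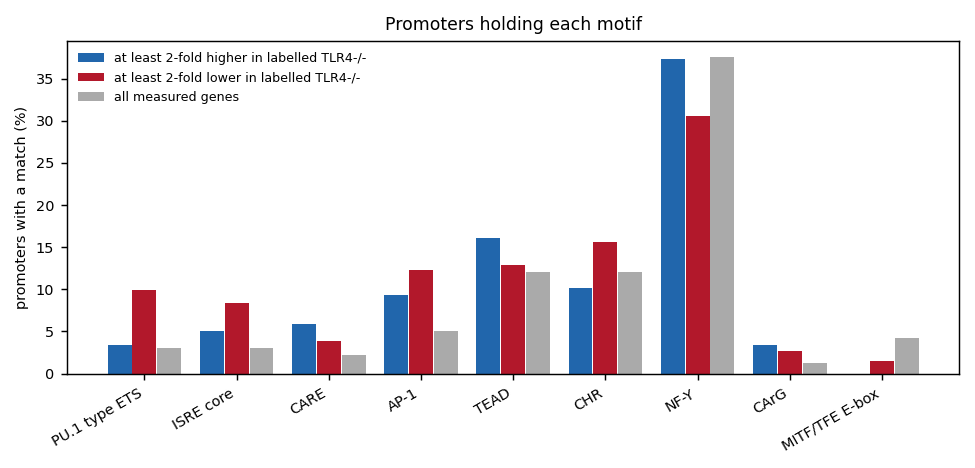
Share of promoters (vertical axis, percent) holding each of 9 sequence elements, for genes 2-fold or more higher in the library labelled TLR4-/- (blue), genes 2-fold or more lower there (red) and all measured genes (grey). The PU.1-type element stands at 9.91% for lower genes against 3.07% for all, while the NF-Y element stands at 37.3%, 30.6% and 37.6%.

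The regions around the targeted genes were also examined. Within 10 Mb of Tlr4, 2 of 40 measured genes were 2-fold or more higher in the library labelled TLR4-/-, Mup19 and Megf9, and 1 was lower, Svep1. Within 10 Mb of Cd44, 1 of 54 was higher, Fjx1, and 2 were lower, Pamr1 and a predicted gene. Over all genes 1.32% were higher and 3.44% lower.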

How the data were processed

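RNA sequencing of cultured mouse hepatic stellate cells gave 1 library for each side of the comparison. Per library, the authors deposited expected counts and FPKM values by gene, made with RSEM on the mm10 build per the submitters' processing notes; RSEM's version and strand handling are not stated in the labels. The deposited FPKM is scaled by transcript length and library total. The deposited tables also hold a length for each gene, and per the file headers genes carry Entrez numbers. Tables were joined on that number, absent genes counted as 0, and 17156 of 17200 genes matched a symbol in the RefSeq table of GRCm38.p6; the 44 others held 0.262% of reads in the library labelled TLR4-/- and 0.242% of reads in CD44-/-. RSEM divides reads among similar transcripts, so near copies are uncertain.

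Differences are log2 ratios of FPKM + 1 among genes with an FPKM of at least 1 in either library. Ratios of single genes are without the added 1, with 95% Clopper-Pearson intervals on rounded expected counts. A count of 0 allows up to 3 reads, 0.127 CPM (counts scaled to library total) in the library labelled TLR4-/- and 0.140 CPM in CD44-/-. With 1 library a side no test was possible and none was run. The members and the 62 gene lists were chosen with earlier results of these data known, so they are descriptions. Named genes were the 15 at each end with 5 FPKM and 50 reads or more in the library where they are higher, predicted genes passed over, members of lists past 2-fold or most abundant, and the 10 most abundant genes of each library. A few list members are named besides, for their role in a pathway, after their values were seen. Alternatives were no filter or one at FPKM 5, an added 0.1 in place of 1, TPM rescaling, median-of-ratios scaling, TMM-scaled CPM (edgeR 4.0.16), a counting interval, protein-coding genes, and leaving out markers of other cell types. The series text speaks of triplicates, and 1 library per genotype was analysed here. Some genes are not reported here. Steps ran in Python 3.11.15 and R 4.3.3 and were tested on simulated data.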

Additional observations from a re-analysis of the deposited data

How the results depend on the processing

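The counts of genes 2-fold or more higher in the library labelled TLR4-/- depended most on low genes. Against 161 higher and 418 lower, a filter at FPKM 5 gave 104 and 265, a pseudocount of 0.1 gave 280 higher and 604 lower, and TPM rescaling gave 255 higher and 602 lower; the filter tests fewer genes, and the other 2 give low genes more weight. Median-of-ratios scaling gave 157 and 423, TMM-scaled CPM 197 and 562, the counting interval 152 and 411, and protein-coding genes alone 116 and 380. Leaving out markers of other cell types gave 160 and 382. Leaving out the immune and lysosomal lists as well gave 160 and 334, and leaving out genes under 200 bases gave 123 and 393; both were chosen after seeing the data. The median over all genes stayed within -0.01 and 0.01 under the 4 alternatives of scale. All 20 lists with a median of at least 0.5 or at most -0.5 kept it under those 4, and no called gene among 336 named ones changed sign. No paired analysis was possible because each genotype has 1 library and no test was run. Depth limits genes near the floor, such as C1qa with 2 reads.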

Other observations

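Outside the lists, the following genes were chosen after their values were seen and are given as values only. Odc1, the ornithine decarboxylase that starts polyamine synthesis, had 119 FPKM in the library labelled TLR4-/- and 47.3 FPKM in CD44-/-, and Srm, the spermidine synthase, had 109 and 45.7 FPKM. Cyp1a1, a target of the aryl hydrocarbon receptor, had 263 and 99.2 FPKM in the same order. Other abundant genes chosen in the same way were Mybbp1a at 84.4 and 41.0 FPKM, Npm3 at 54.0 and 24.2 FPKM, Ccnd1 (cyclin D1) at 78.1 and 31.0 FPKM and the transferrin receptor Tfrc at 48.1 and 21.5 FPKM.

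Abundant genes 2-fold or more lower in the library labelled TLR4-/- included secreted proteins and receptors that are not macrophage markers. Gdf2 (BMP9) had 103 FPKM in the library labelled TLR4-/- and 207 FPKM in CD44-/-, and Gdf10 had 59.7 and 185 FPKM. Tnfrsf11b (osteoprotegerin) had 36.6 and 119 FPKM, the angiotensin receptor gene Agtr1a 54.9 and 135 FPKM, Alpl (alkaline phosphatase) 62.8 and 181 FPKM, and Fgfr2 53.9 and 125 FPKM. Isyna1, which makes inositol phosphate, had 43.9 and 255 FPKM, and Cp (ceruloplasmin) had 14.7 and 85.5 FPKM. Ncf4, like the listed marker Cybb, encodes a subunit of the phagocyte NADPH oxidase, with Cybb at 0.26 and 15.98 FPKM and Ncf4 at 0.20 and 4.02 FPKM. Apoe, which macrophages and stellate cells both express, had 253 and 694 FPKM. Macrophage markers summed to 26.8 FPKM in the library labelled TLR4-/- and 675 FPKM in CD44-/-, and their part in these values was not tested.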
